A study of Mus musculus with 4 samples.

Results

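Imprinted genes are genes read mainly from the copy inherited from the mother or mainly from the copy inherited from the father. A list of 38 mouse imprinted genes was followed here across the cell classes of the mid-gestation embryo, and 36 of the 38 have a row among the 31053 genes counted; Rian and Peg13 were not analysed here. The genes were taken by symbol, with no threshold on their values. Of the 36, 31 reached a mean of at least 10 CPM (the gene's share of all UMIs of a class, scaled to the usual common total) in at least 1 class and are named below with their values, and 5 did not (Ascl2, Slc22a18, Rtl1, Magel2 and Trappc9). The cells are CD31+ cells lacking CD45 (written C45- in the labels) sorted from the AGM (aorta, gonad and mesonephros) of embryos at embryonic day 10.5 and profiled with the 10x Genomics 3' kit, version 3. There are 2 libraries of wild type embryos (WT1 and WT2) and 2 of age-matched miR-223-/- embryos (KO1 and KO2), which lack a microRNA best known from myeloid blood cells. The labels give neither the strain nor whether replicate libraries were made from different embryos or litters. The p-values therefore measure the spread between these libraries only, which may be technical.

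Imprinting rests on DNA methylation laid down in the egg or the sperm at imprinting control regions, and it is copied at each division in the body's cells. Many imprinted genes act on growth: paternally read genes such as Igf2 tend to promote it and maternally read genes such as Cdkn1c, Grb10 and Phlda2 tend to restrain it. Primordial germ cells, the precursors of eggs and sperm, erase both parental marks as they migrate to and enter the genital ridge, so that new marks can be set later according to sex. UMI counts give the summed output of both copies. Nothing below separates the parental alleles or measures methylation.

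The libraries held 19165 cells after filtering (2295 in WT1, 6875 in WT2, 4122 in KO1 and 5873 in KO2), and 17827 of them fell in 5 classes. The clusters behind the classes were built without any imprinted gene and without genes of the imprint machinery, and were named from fixed markers. Germ cells numbered 46, 147, 90 and 151 in WT1, WT2, KO1 and KO2. Their cluster was led by Dppa5a, Dppa3, Utf1 and Pou5f1, and all 13 germ cell markers were detected in it. The endothelial class held 1681 to 5877 cells per library, the mesenchymal class 186 to 413, the neural class 38 to 189 and the blood class 87 to 214. Blood joined erythroid, megakaryocyte and hemogenic or progenitor cells, and its make-up differed between libraries: hemogenic or progenitor cells were 11 of 87 blood cells in WT1 and 124 of 214 in KO1. Germ cells carried more UMIs per cell (library medians of 36472 to 57499) than endothelial cells (18683 to 31174). KO1 stood apart in Xist, the X-inactivation RNA, with a UMI in 0.0728% of its cells against 40.7% to 49.5% in the other libraries. Embryo sex was not taken into account in any KO against WT comparison below. Between 8 and 28 barcodes were shared by any pair of libraries, of which 3 to 9 were kept cells in both.

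Cells of other classes leave free RNA in droplets, so marker sums are given beside the germ cell results. The 14 endothelial markers summed to 283 to 384 CPM in germ cells and to 5731 to 6458 CPM in endothelial cells, with all 14 above 0 in germ cells. Pecam1, the gene of CD31 itself, is among them, and the cells were sorted for CD31. How much of the sum in germ cells was free RNA was not tested. The 15 mesenchymal markers summed to 2.94 to 9.29 CPM in germ cells and the 9 erythroid markers to 24.98 to 799.5 CPM, highest in KO1. How much of the low imprinted gene signal in germ cells came with such RNA was not tested.

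Control regions and starts of these genes are where parental methylation is read. The stretches upstream of 4 starts are shown first, from RefSeq (GRCm38.p6), 5' to 3' on the strand of the gene named. No expression result below was measured on them. Each ends just before an annotated start. Capitals mark TGCCGC or its reverse complement GCGGCA, the hexamer bound by ZFP57, a zinc finger protein that protects methylated imprints. Mest (chr6:30737800-30738049, plus strand) and Airn (chr17:12741061-12741310, plus strand) are shown because these 2 genes fell furthest in germ cells against endothelial cells. Kcnq1ot1 (chr7:143296550-143296797, minus strand) is shown because it is the noncoding RNA of the locus whose members diverged most. The 146 bases between the head-to-head starts of Peg3 and Usp29 (chr7:6730432-6730577, plus strand) are shown because the estimates of those neighbours had opposite signs. The call for Usp29 was lost without KO2, and its germ and endothelial ranges overlapped.
Mest: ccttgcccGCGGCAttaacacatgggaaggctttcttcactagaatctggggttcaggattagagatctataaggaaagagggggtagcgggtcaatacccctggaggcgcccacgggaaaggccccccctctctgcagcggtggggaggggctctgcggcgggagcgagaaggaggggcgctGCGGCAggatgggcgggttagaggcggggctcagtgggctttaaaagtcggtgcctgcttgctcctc
Airn: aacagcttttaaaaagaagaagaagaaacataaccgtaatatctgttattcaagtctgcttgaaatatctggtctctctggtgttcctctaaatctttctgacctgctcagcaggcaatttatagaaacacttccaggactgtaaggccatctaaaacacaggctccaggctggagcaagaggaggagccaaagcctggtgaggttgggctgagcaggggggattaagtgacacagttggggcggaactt
Kcnq1ot1: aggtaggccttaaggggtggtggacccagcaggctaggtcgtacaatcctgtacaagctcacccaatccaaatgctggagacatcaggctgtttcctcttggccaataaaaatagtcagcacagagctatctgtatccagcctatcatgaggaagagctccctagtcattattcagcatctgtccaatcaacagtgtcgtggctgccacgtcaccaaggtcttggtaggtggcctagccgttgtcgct
Peg3-Usp29: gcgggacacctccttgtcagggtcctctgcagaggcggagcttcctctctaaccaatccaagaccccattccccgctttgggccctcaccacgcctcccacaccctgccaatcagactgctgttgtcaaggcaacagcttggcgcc
The Mest stretch holds 2 hexamers and 14 CpG dinucleotides, and the other stretches hold no hexamer and 2 (Airn), 5 (Kcnq1ot1) and 5 (Peg3-Usp29) CpG dinucleotides. Over all 32851 RefSeq windows of 250 bases before a start, 8.68% hold the hexamer on either strand. Among 43 such windows of 29 listed genes, 8 do (18.6%), in Zdbf2, Mest (in a pair of overlapping windows), Copg2, Nap1l5, Zim1, Plagl1 and Meg3. A match is a run of letters and not a measured site, and its absence from a window says nothing about the rest of a locus.

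The 36 genes together made up 0.160% ± 0.019 of germ cell UMIs (mean ± SD, n = 4 libraries), against 0.848% ± 0.053 in endothelial cells, 0.905% ± 0.023 in mesenchymal cells, 0.606% ± 0.061 in neural cells and 0.307% ± 0.077 in blood. The germ cell values of 0.146% to 0.187% lay below those of every library in the other 4 classes. The ranges of endothelial and mesenchymal cells overlapped. Within blood the share was 0.0965% ± 0.014 in erythroid cells, which hold much globin RNA, 0.315% ± 0.056 in megakaryocytes and 0.458% ± 0.031 in hemogenic or progenitor cells. Erythroid cells were thus the only group of cells named here with a lower share than germ cells. The 9 erythroid markers alone took 350440 to 471829 CPM of erythroid UMIs by library, which lowers the share of every other gene. How erythroid and germ cells rank with those UMIs left out was not tested. In the map of levels by class, single genes follow: 26 of 34 tested genes had a lower estimate in germ than in endothelial cells.

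**Figure D1:**
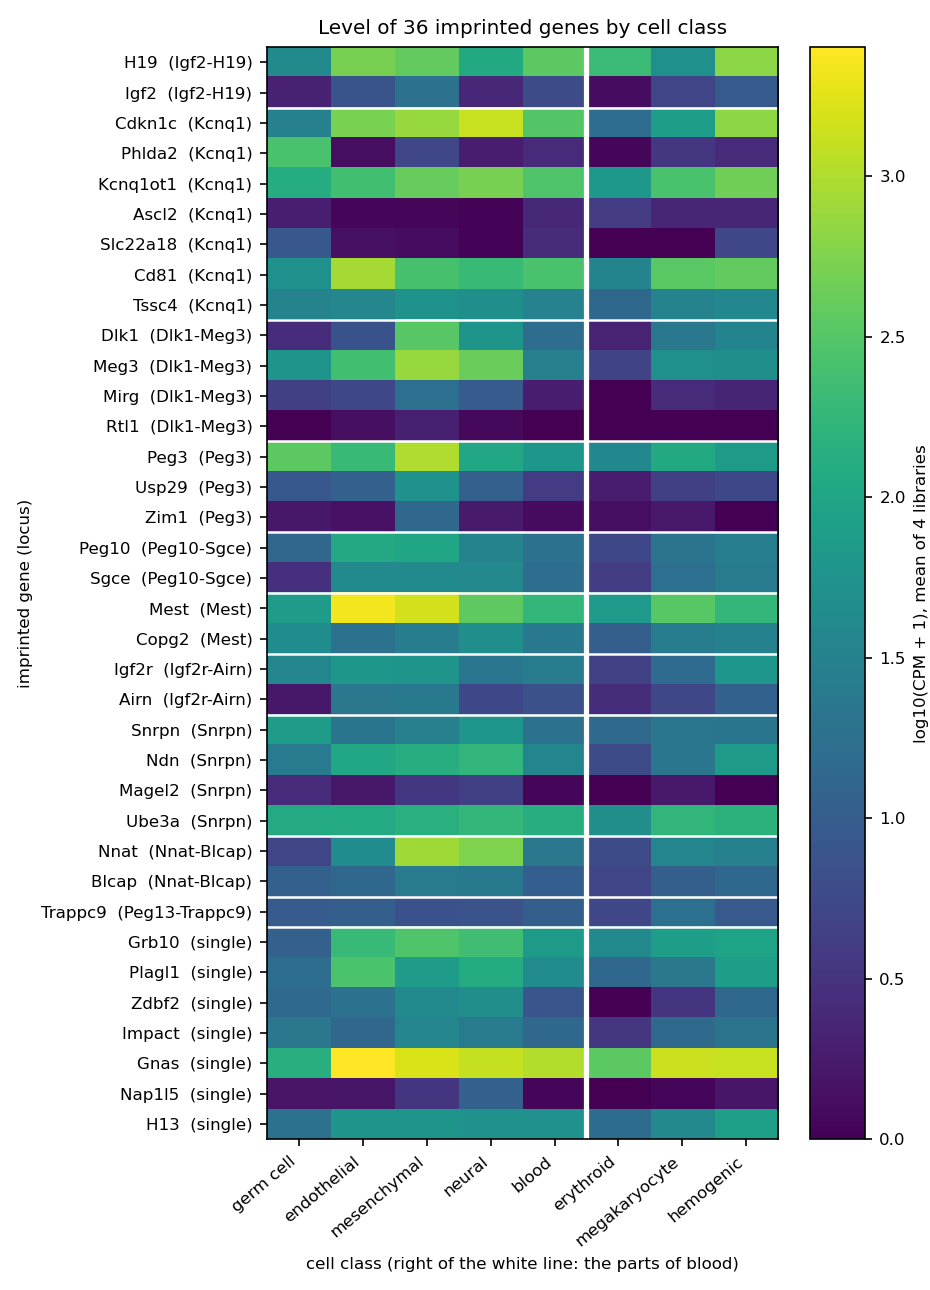
Mean level of 36 imprinted genes (rows, grouped by locus) in 5 cell classes and in the 3 parts of blood (columns), as log10(CPM + 1) over 4 libraries. The germ cell column is darker than the endothelial one for most genes, while Phlda2 is bright in germ cells alone.

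Germ cells were compared with each other class within libraries, with the library as a block, in 1 edgeR quasi-likelihood fit over 12485 genes (Benjamini-Hochberg threshold of 0.05). Against endothelial cells 34 of the genes could be tested: 7 were higher in germ cells and 22 lower, with a median log2 change of -0.91 against -0.08 for all genes. Of all genes tested in this contrast 78.7% were called, 37.2% higher and 41.5% lower. Calls are thus frequent among all genes, and the values below describe the direction and size of each change. Against mesenchymal cells 5 genes were higher and 28 lower in germ cells, with a median of -2.22 (background 74.5% called, 35.6% higher and 38.9% lower). Against neural cells the counts were 5 and 22 with a median of -1.22 (background 70% called, 32.9% higher and 37.1% lower), and against blood 9 and 18 with a median of -0.40 (background 71.9% called, 33.4% higher and 38.5% lower). Scaling by library totals in place of TMM shifted the median of all genes by 0.22 against blood, where the share of calls that were higher moved from 46.4% to 56.8% and the counts of imprinted genes to 12 higher and 16 lower. Genes usually read from the paternal copy (4 higher and 11 lower of 17 tested against endothelial cells) and from the maternal copy (2 higher and 6 lower of 9) were both found on either side. A log2 change below is germ cells against endothelial cells unless another class is named, and it was called unless stated otherwise. Fewer cells of a type do not enter these values, since each is a share of the UMIs of its own class.

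**Figure D2:**
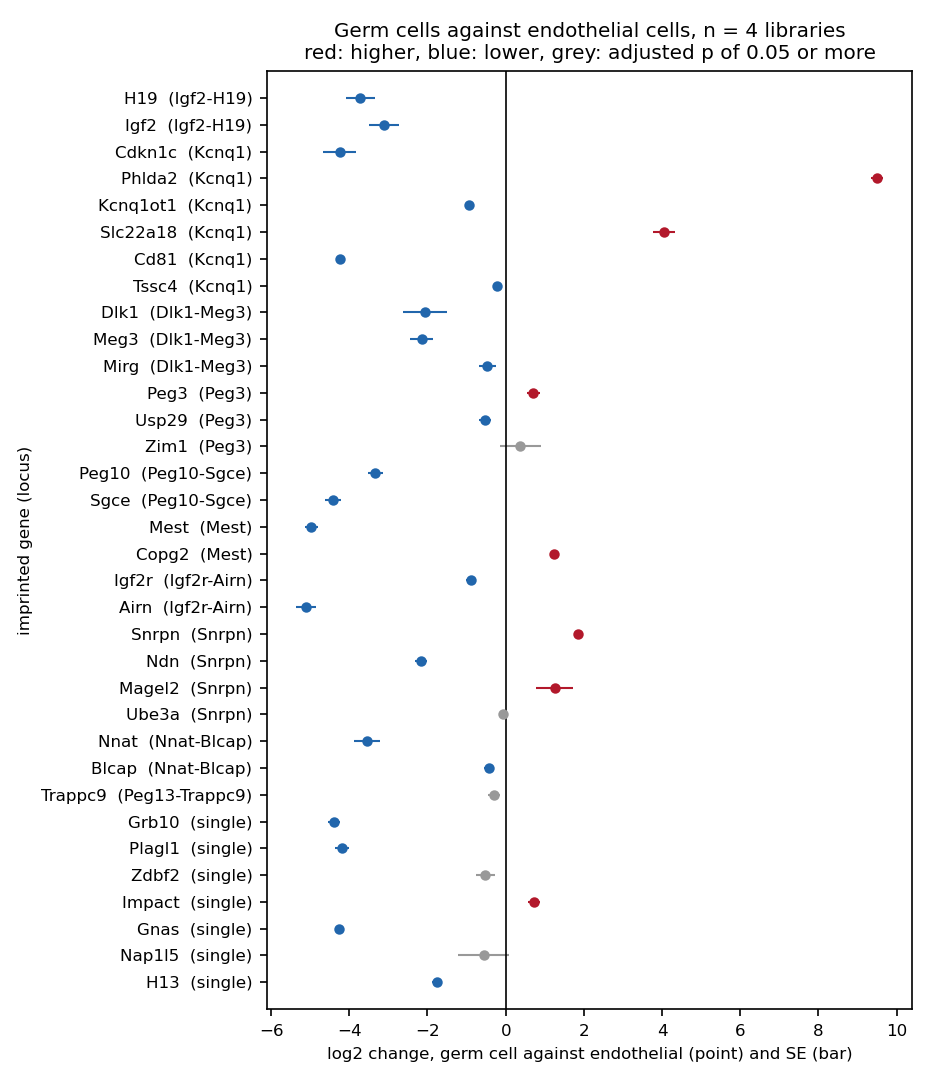
Log2 change of 34 imprinted genes in germ cells against endothelial cells (x axis), with SE bars, from 4 libraries. Phlda2 lies at 9.49, Slc22a18 at 4.05 and Snrpn at 1.85, while Mest, Airn, Sgce, Grb10, Gnas, Cdkn1c, Cd81 and Plagl1 lie below -4.

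At the Igf2-H19 locus on chromosome 7, H19 (chr7:142575529-142578143, minus strand), a noncoding RNA read from the maternal copy, fell in germ cells. Its level was 44.6 and 36.1 CPM (WT), 41.97 and 40.9 (KO), against 437 and 572 CPM (WT), 467 and 538 (KO) in endothelial cells, a log2 change of -3.71 (SE 0.377). It was also lower in germ cells than in mesenchymal cells (325 to 473 CPM). In neural cells it ranged from 45.1 to 258 CPM, with the highest value in WT2, and the call against germ cells was lost without WT2 (log2 -0.47), without KO2 and with doublets kept. After each cell was thinned to 5000 UMIs, H19 was detected in 14.97 to 22.7% of germ cells and 77.95 to 83.2% of endothelial cells. Erythroid cells had it in 40 to 75%, on 12 to 72 cells per library. Igf2 (chr7:142650766-142666816, minus strand), the paternally read growth factor, shares its strand with the overlapping gene model Gm49394 and gave few UMIs: 15 in all germ cells, 2446 in endothelial cells and 412 in mesenchymal cells. Reads that fit both models may be missing from these counts, which was not tested. Its levels were 1.86 and 0.327 CPM (WT), 1.54 and 0.486 (KO) in germ cells, 6.43 and 8.69 CPM (WT), 5.01 and 6.68 (KO) in endothelial cells and 18.5 and 22.3 CPM (WT), 11.8 and 17.1 (KO) in mesenchymal cells. The germ cell libraries thus lay below every endothelial and mesenchymal library for both genes of the locus (Igf2 log2 change -3.10 (SE 0.385)).

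The Kcnq1 locus, also on chromosome 7, held the widest split. Phlda2 (chr7:143501545-143503150, minus strand), a small pleckstrin-homology protein known for limiting the growth of the placenta, had 181 and 179 CPM (WT), 426 and 271 (KO) in germ cells. In endothelial cells it had 0.325 and 0.239 CPM (WT), 0.478 and 0.338 (KO), in mesenchymal cells 3.26 to 6.87 CPM, in neural cells 0 to 2.05 CPM and in blood 0.527 to 2.77 CPM. Germ cells were therefore higher in all 4 libraries than any other class, with log2 changes of 9.49 (SE 0.153) against endothelial and 6.02 (SE 0.147) against mesenchymal cells. Per cell this was 11.1 ± 3.24 UMIs in germ cells and 0.00850 ± 0.00300 in endothelial cells (mean ± SD, n = 4). At 5000 UMIs per cell, 50.7 to 78.4% of germ cells had a UMI of Phlda2, 0.0599 to 0.276% of endothelial cells, 0.543 to 3.06% of mesenchymal cells and 0% of erythroid cells in each library, though the latter numbered 12 to 72. The mesenchymal signal was highest in the small cluster of 85 cells led by Col1a1, Postn and Lum (14.9 to 53.6 CPM by library), against 1.38 to 3.57 and 0 to 2.63 in the other mesenchymal clusters. Slc22a18 (chr7:143473736-143499334, plus strand), a transporter gene next to Phlda2 on the opposite strand, was low everywhere but highest in germ cells, at 5.06 to 8.95 CPM against 0.354 to 0.463 in endothelial cells. Its log2 change was 4.05 (SE 0.284).

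The other 4 genes of the locus that were tested were lower in germ cells. Cdkn1c (chr7:143458339-143461050, minus strand), the cell cycle inhibitor p57 and a neighbour of Phlda2 that is likewise read from the maternal copy, had 37.5 and 25.3 CPM (WT), 28.4 and 25.9 (KO) in germ cells and 513 and 486 CPM (WT), 498 and 565 (KO) in endothelial cells (log2 change -4.24 (SE 0.425)). It peaked in neural cells at 1571 and 1247 CPM (WT), 1039 and 1442 (KO), and every germ cell library lay below every library of the other 4 classes. Kcnq1ot1 (chr7:143203458-143296549, minus strand), the paternally read antisense RNA whose upstream stretch is shown above and which silences genes of the domain in cis, had 98.5 and 157 CPM (WT), 133 and 120.5 (KO) in germ cells and 169 and 287 CPM (WT), 211 and 267 (KO) in endothelial cells. Its change was small (log2 -0.93 (SE 0.0834)), and every library's germ cells lay below its own endothelial cells. The gene lies antisense within Kcnq1, and no source states if the authors' counting used strand.

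Cd81 (chr7:143052739-143067934, plus strand), a tetraspanin membrane protein imprinted in few tissues only, had 52.8 and 49.1 CPM (WT), 47.5 and 47.7 (KO) in germ cells and 911 and 855 CPM (WT), 867 and 893 (KO) in endothelial cells, a log2 change of -4.23 (SE 0.0970). Endothelial cells were its highest class, with blood at 172 to 334 CPM, mesenchymal cells at 229.6 to 273 and neural cells at 194 to 208. Tssc4 (chr7:143069249-143071093, plus strand) varied little across classes, with 30.5 to 33.1 CPM in germ cells, 34.4 to 40.3 in endothelial cells and 47.9 to 61.3 in mesenchymal cells. Its small log2 change of -0.23 (SE 0.0780) was lost without KO2 and with library totals in place of TMM scaling. Ascl2, a trophoblast transcription factor, stayed at or under 2.14 CPM in each of the 5 classes and was not tested between classes.

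At the Dlk1-Meg3 locus on chromosome 12, the 3 genes tested were lower in germ than in endothelial cells and highest in mesenchymal cells. Dlk1 (chr12:109452823-109463336, plus strand), a paternally read membrane protein of the Notch ligand family, had 2.23 and 0.980 CPM (WT), 2.78 and 0.973 (KO) in germ cells, 8.18 and 5.65 CPM (WT), 6.85 and 4.15 (KO) in endothelial cells and 281 and 268 CPM (WT), 479.6 and 274 (KO) in mesenchymal cells. The log2 change of germ cells was -2.06 (SE 0.568) against endothelial cells, lost with doublets kept, and -7.58 (SE 0.417) against mesenchymal cells. Meg3 (chr12:109541001-109571726, plus strand), the maternally read noncoding RNA of the locus, had 55.4 and 39.02 CPM (WT), 88.3 and 44.1 (KO) in germ cells and 221 and 192 CPM (WT), 309.8 and 214 (KO) in endothelial cells. It rose to 636 and 595 CPM (WT), 905 and 886 (KO) in mesenchymal cells, and germ cells did not overlap either class (log2 -2.15 (SE 0.287) and -3.66 (SE 0.299)). In blood Meg3 had 21.3 to 37.8 CPM, below the germ cell range, and the difference was not called (log2 0.68 (SE 0.334), adjusted p 0.0849, edgeR). Mirg (chr12:109729764-109749460, plus strand), a host transcript of microRNAs, had 2.45 to 4.46 CPM in germ cells, 3.31 to 6.22 in endothelial cells and 9.50 to 23.2 in mesenchymal cells. Its change against endothelial cells (log2 -0.47) was lost in DESeq2 and without any one of WT2, KO1 and KO2, and its germ and endothelial ranges overlapped. By library, Rtl1 stayed at or under 1.68 CPM in every class and had no UMI in germ cells.

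Germ cells had more than endothelial cells of Peg3 (chr7:6703892-6730431, minus strand), a zinc finger gene read from the paternal copy. It had 311 and 358 CPM (WT), 400.2 and 319 (KO) in germ cells, 177 and 203 CPM (WT), 258 and 179 (KO) in endothelial cells and 861 and 1095 CPM (WT), 999 and 1049 (KO) in mesenchymal cells. The germ cell level lay above all endothelial libraries and below all mesenchymal ones, with log2 changes of 0.71 (SE 0.155) and -1.41 (SE 0.157). At 5000 UMIs per cell 75.6 to 82.4% of germ cells had a UMI, against 42.5 to 57.2% of endothelial and 5.26 to 16.7% of erythroid cells. Usp29 (chr7:6730578-6967219, plus strand), a ubiquitin protease gene that starts on the other strand across the 146 bases shown above, moved the other way, with 5.95 and 9.14 CPM (WT), 8.64 and 5.68 (KO) in germ cells and 8.35 and 11.1 CPM (WT), 10.7 and 9.96 (KO) in endothelial cells (log2 -0.54 (SE 0.158)). That call was lost without KO2, and 2 germ cell libraries (WT2 and KO1) lay inside the endothelial range. Both neighbours were highest in mesenchymal cells, where Usp29 had 43.3 to 65.4 CPM. Zim1 (chr7:6671269-6696450, minus strand), the maternally read zinc finger gene beside Peg3, reached 11.8 and 14.5 CPM (WT), 13.4 and 10.8 (KO) in mesenchymal cells and stayed at or under 2.05 CPM in the other classes. Its difference between germ and endothelial cells was not called (log2 0.37 (SE 0.529), adjusted p 0.527, edgeR).

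**Figure D3:**
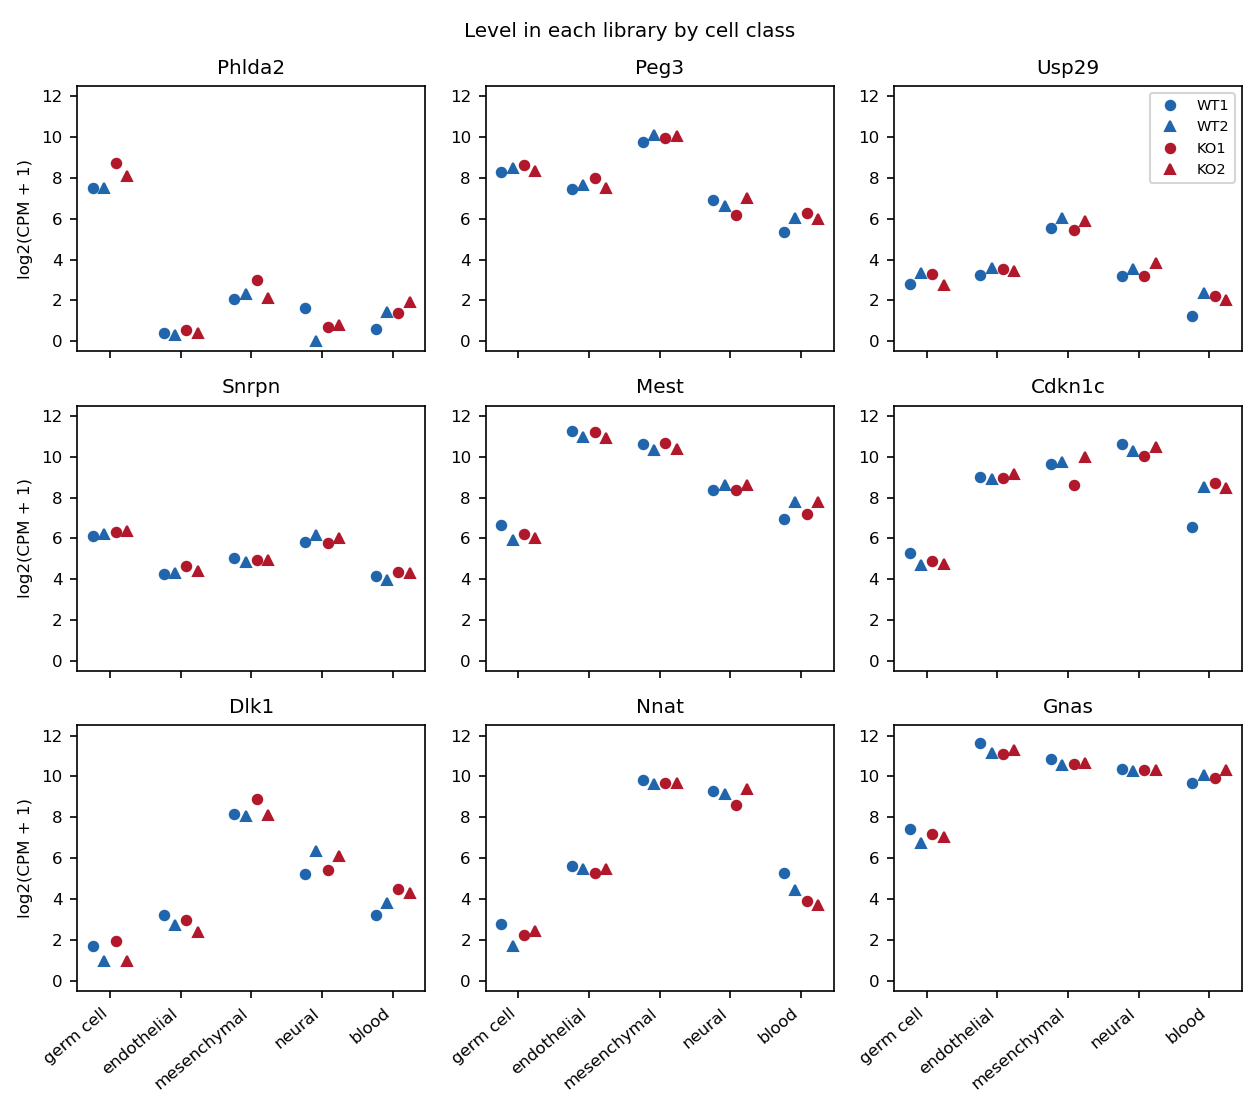
Level of 9 imprinted genes as log2(CPM + 1) in each library (blue WT, red KO, circles replicate 1, triangles replicate 2) by cell class. Phlda2 is high in germ cells alone, Peg3 and Snrpn are higher in germ than in endothelial cells, and Mest, Cdkn1c, Nnat and Gnas are lowest in germ cells in every library.

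Peg10 (chr6:4747306-4760517, plus strand) and Sgce (chr6:4674350-4747207, minus strand) are paternally read neighbours that start head to head on chromosome 6, 1 a retrotransposon-derived gene and the other a sarcoglycan of the muscle membrane complex. Peg10 had 11.5 and 7.84 CPM (WT), 20.1 and 9.73 (KO) in germ cells and 131 and 111 CPM (WT), 98.6 and 109.8 (KO) in endothelial cells, and mesenchymal cells overlapped endothelial cells at 93.9 to 108 CPM. Sgce had 1.12 and 2.61 CPM (WT), 2.78 and 1.14 (KO) in germ cells, against 42.4 and 36.8 CPM (WT), 38.99 and 40.5 (KO) in endothelial cells, with mesenchymal (35.2 to 46.7 CPM) and neural cells (34.9 to 43.3 CPM) overlapping the latter. Both genes fell in germ cells, with log2 changes of -3.33 (SE 0.187) and -4.42 (SE 0.209). Sgce was also lower than in blood, whose libraries had 8.70 to 23.01 CPM.

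Mest (chr6:30723547-30748465, plus strand), a paternally read hydrolase-like protein of embryonic mesoderm, fell strongly in germ cells. It had 100 and 60.6 CPM (WT), 73.4 and 64.4 (KO) in germ cells, 2493 and 1978 CPM (WT), 2381 and 1951 (KO) in endothelial cells and 1567 and 1294 CPM (WT), 1654 and 1350.3 (KO) in mesenchymal cells. The log2 change was -4.97 (SE 0.175) (adjusted p 1.28e-12, edgeR), and the germ cell libraries also lay below every neural (329.9 to 394 CPM) and blood library (122 to 219 CPM). Within blood, erythroid cells had 35.9 to 131 CPM, which overlapped the germ cell range. At 5000 UMIs per cell a UMI of Mest was found in 26.1 to 42.2% of germ cells, 10.5 to 25% of erythroid and 99.3 to 99.7% of endothelial cells. Copg2 (chr6:30747554-30896794, minus strand), a vesicle coat subunit whose 3' end overlaps that of Mest on the opposite strand, went the other way: 53.5 and 37.9 CPM (WT), 45.7 and 41.5 (KO) in germ cells and 18.8 and 17.1 CPM (WT), 20.1 and 16.1 (KO) in endothelial cells (log2 1.24 (SE 0.0826)). Germ and neural cells overlapped in Copg2 and their difference was not called (46.3 to 50.2 CPM in neural cells, log2 0.03 (SE 0.101), adjusted p 0.791, edgeR). The opposite directions of the 2 overlapping genes held in every library.

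At the Igf2r-Airn locus on chromosome 17 the 2 overlapping genes both fell, to different degrees. Airn (chr17:12741311-12860136, plus strand), the paternally read antisense RNA that silences Igf2r and whose upstream stretch is shown above, had 1.12 and 0.490 CPM (WT), 0.309 and 0.811 (KO) in germ cells and 23.03 and 28.2 CPM (WT), 15.02 and 19.7 (KO) in endothelial cells, a log2 change of -5.10 (SE 0.257). Its germ cell values rest on few UMIs, and no germ cell library reached the lowest endothelial one. Igf2r (chr17:12682406-12769664, minus strand), the maternally read receptor that clears Igf2 from the cell surface, had 37.2 and 35.9 CPM (WT), 33.3 and 35.5 (KO) in germ cells and 58.1 and 77.9996 CPM (WT), 54.8 and 59.2 (KO) in endothelial cells (log2 -0.88 (SE 0.125)). Neural cells had less of it than germ cells, at 15.8 to 25.4 CPM, so that germ cells were not its lowest class (log2 0.99 (SE 0.184) against neural).

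The Snrpn locus split as well. Snrpn (chr7:59982495-60140219, minus strand), a spliceosome protein read from the paternal copy, rose in germ cells to 68.02 and 72.2 CPM (WT), 79.3 and 82.2 (KO), against 18.1 and 18.8 CPM (WT), 23.9 and 20.05 (KO) in endothelial cells and 31.4 and 28.2 CPM (WT), 30.1 and 29.3 (KO) in mesenchymal cells. The log2 change was 1.85 (SE 0.103), and the germ cell libraries lay above all libraries of every class but neural, whose range of 54.1 to 70.9 CPM overlapped theirs. The gene model shares its strand with Snurf and with Gm38393, and Gm38393 itself had 5.58 to 12.8 CPM in germ cells and 1.11 to 1.65 in endothelial cells. Reads that fit several of these models may be missing from the count of Snrpn, which was not tested. Ndn (chr7:62346569-62350262, plus strand), a paternally read MAGE-family protein known from neurons, fell to 21.9 and 20.6 CPM (WT), 24.4 and 29.7 (KO) from 101 and 88.2 CPM (WT), 129 and 105 (KO) in endothelial cells, a log2 change of -2.17 (SE 0.152). Its highest mean was in neural cells, at 137 and 136 CPM (WT), 192 and 217 (KO), which overlapped mesenchymal cells (115 to 154 CPM). Against blood it was lower in germ cells (log2 -0.76 (SE 0.172)), and the sign turned when hemogenic or progenitor cells were left out of blood (log2 0.67). Ube3a (chr7:59228750-59311536, plus strand), a ubiquitin ligase imprinted in neurons only, had 104 and 123 CPM (WT), 125 and 121 (KO) in germ cells and 105 and 124 CPM (WT), 124 and 122 (KO) in endothelial cells, overlapping ranges whose difference was not called (log2 -0.06 (SE 0.0633), adjusted p 0.362, edgeR). Magel2 stayed at or under 4.65 CPM, and its call in germ cells (log2 1.25) was lost in DESeq2 and without any one of WT2, KO1 and KO2.

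Nnat (chr2:157560078-157562522, plus strand), a small membrane protein of developing neurons that is read from the paternal copy, had 5.95 and 2.29 CPM (WT), 3.70 and 4.38 (KO) in germ cells, 47.98 and 43.9 CPM (WT), 37.7 and 42.5 (KO) in endothelial cells, 912 and 791 CPM (WT), 811 and 815 (KO) in mesenchymal cells and 633 and 559 CPM (WT), 389 and 658 (KO) in neural cells. Germ cells were below every library of all 4 other classes, with log2 changes of -3.54 (SE 0.330) against endothelial and -7.65 (SE 0.312) against mesenchymal cells. Blcap (chr2:157556362-157571274, minus strand), in whose intron Nnat lies on the opposite strand, varied far less: 9.14 to 11.8 CPM in germ cells, 11.7 to 15.1 in endothelial cells and 18.7 to 30.2 in mesenchymal cells (log2 -0.43 (SE 0.134)). Its germ and endothelial ranges met, with KO2 germ cells at the level of KO2 endothelial cells.

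Among the 7 genes taken singly, 4 fell in germ cells by more than 1 on the log2 scale. Gnas (chr2:174284320-174346744, plus strand), the stimulatory G protein subunit with imprinted isoforms that the gene count merges, had 169 and 108 CPM (WT), 145 and 129.7 (KO) in germ cells and 3142 and 2307 CPM (WT), 2165 and 2485 (KO) in endothelial cells. Germ cells were its lowest class in all 4 libraries (log2 -4.26 (SE 0.108)), with mesenchymal cells at 1486 to 1829 CPM and erythroid cells at 249 to 405. Grb10 (chr11:11930508-12038683, minus strand), an adaptor that dampens insulin and IGF receptor signals, had 14.5 and 7.35 CPM (WT), 8.64 and 9.57 (KO) in germ cells and 194 and 200.5 CPM (WT), 178 and 203 (KO) in endothelial cells (log2 -4.40 (SE 0.152)). The other classes lay well above germ cells too, with 269 to 319.96 CPM in mesenchymal cells and 35.5 to 53.4 in erythroid cells. Plagl1 (chr10:13060504-13131694, plus strand), a zinc finger transcription factor read from the paternal copy, had 21.9 and 15.02 CPM (WT), 11.1 and 15.6 (KO) in germ cells and 269.7 and 289 CPM (WT), 241 and 285 (KO) in endothelial cells (log2 -4.18 (SE 0.184)). Endothelial cells were its highest class, above neural (105 to 134 CPM) and mesenchymal cells (67.3 to 80.6 CPM).

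H13 (chr2:152669461-152708670, plus strand), a signal peptide peptidase whose intron holds Mcts2 on the same strand, had 16.7 and 15.3 CPM (WT), 21.6 and 16.4 (KO) in germ cells and 60.4 and 53.96 CPM (WT), 55.2 and 55.7 (KO) in endothelial cells (log2 -1.77 (SE 0.120)), with mesenchymal (54.1 to 60.01 CPM) and neural cells (45.1 to 56.8 CPM) overlapping the latter. Impact (chr18:12955852-12992950, plus strand), a regulator of the stress kinase Gcn2, went up instead, with 30.1 and 19.8 CPM (WT), 19.4 and 17.03 (KO) in germ cells and 11.5 and 12.3 CPM (WT), 12.8 and 11.98 (KO) in endothelial cells (log2 0.73 (SE 0.149)). Zdbf2 (chr1:63273265-63314576, plus strand), a paternally read zinc finger gene, had 10.8 to 15.6 CPM in germ cells and 14.5 to 21.2 in endothelial cells, which was not called (log2 -0.52 (SE 0.254), adjusted p 0.0727, edgeR). Nap1l5 (chr6:58905233-58907076, minus strand), a nucleosome assembly protein of neurons, reached a mean of 10 CPM in neural cells alone. It had 11.3 and 8.14 CPM (WT), 6.57 and 14.2 (KO) there and stayed at or under 2.84 CPM in the other classes. Trappc9, a vesicle tethering subunit, had 6.97 to 10.4 CPM in germ cells and 8.71 to 11.9 in endothelial cells and was not called between them.

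In mesenchymal cells against endothelial cells, 19 of 34 genes were higher and 7 lower, with a median log2 change of 0.38 (background 65.1% called, 31.6% higher and 33.5% lower, median -0.02). With library totals in place of TMM the median of all genes rose by 0.18, the share of higher calls among all genes moved from 48.5% to 63.1%, and the imprinted gene counts were 21 higher and 5 lower. The largest rises were Dlk1 (log2 5.53 (SE 0.276)), Zim1 (4.56 (SE 0.267)) and Nnat (4.10 (SE 0.216)). Usp29 and Peg3 rose by log2 2.21 and 2.12, Meg3 and Mirg by 1.51 and 1.70. Cd81 and Plagl1 were lower in mesenchymal cells, with log2 changes of -1.97 and -2.04, as were Gnas and Mest, with -0.81 and -0.76. The mesenchymal class was not uniform: in the Col1a1, Postn and Lum cluster Plagl1 had 363 to 636 CPM by library, against 25.7 to 42.1 in the Prrx1 and Shox2 cluster and 39.6 to 75.3 in the Foxd1, Pax1 and Meox1 cluster. Meg3 had 1674 to 2377, 477 to 698 and 597 to 977 CPM in the same 3 clusters. For both genes the libraries of the first cluster lay above all libraries of the other 2; its library counts were 15, 8, 48 and 14 cells, so these are descriptions.

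Endothelial cells themselves fell into 13 clusters in which some imprinted genes spread widely and others little. H19 was highest in an arterial cluster led by Htra1, Tmem100 and Gja5, at 1741 to 3013 CPM by library, and lowest in the cluster led by Oit3, Lyve1 and Stab2, genes of sinusoidal endothelium, at 245 to 295 CPM. Cdkn1c was high in another arterial cluster, led by Gja5 and Gja4, at 2194 to 2746 CPM, and in a cluster led by Pdlim3 with Gata4 and Tbx20 at 1227 to 3613 CPM. In a cluster led by Foxq1 and Tdrp it had 169 to 218 CPM, below every library of those 2 clusters. Mest was lowest where H19 was highest, with 587 to 1294 CPM in the Htra1 cluster and 2465 to 2847 in the sinusoidal one. Igf2r stood out in the Gata4 and Tbx20 cluster at 111 to 284 CPM, where Peg3 was also high (460.3 to 759 CPM). Nnat had 7.91 to 12.9 CPM in the sinusoidal cluster, its lowest, and 111 to 156 in the Gja5 and Gja4 cluster, its highest. Ube3a varied by a factor of 1.28 over the 13 clusters, against 9.33 for H19, 13.4 for Cdkn1c and 3.11 for Mest. The germ cell levels of H19, Cdkn1c, Mest and Nnat lay below all 13 clusters.

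**Figure D4:**
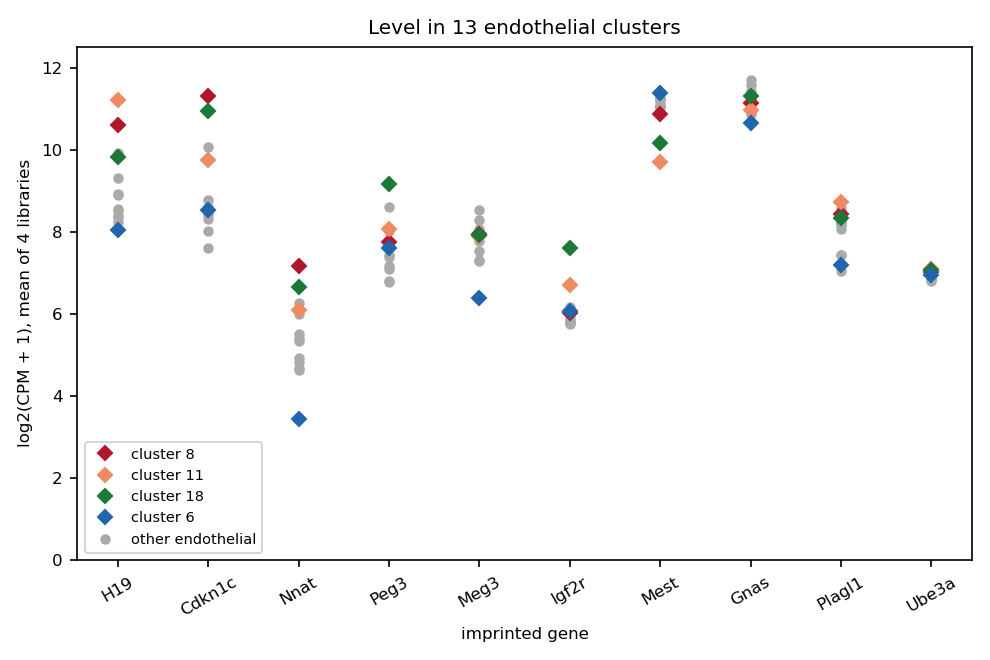
Level of 10 imprinted genes as log2(CPM + 1), mean of 4 libraries, in each of 13 endothelial clusters (points), with 2 arterial clusters (8 and 11), the Gata4 and Tbx20 cluster (18) and the sinusoidal cluster (6) in colour. H19, Cdkn1c and Nnat spread widely while Ube3a does not.

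The 2 neural clusters also differed. Cdkn1c had 2245 to 3355 CPM by library in the cluster led by Tubb3 and Nefm, genes of neurons, and 220.2 to 435 in the cluster led by Fabp7 and Hes5, genes of neural progenitors. Nnat had 622 to 1163 against 272 to 302 CPM and Meg3 450.3 to 1235 against 90.1 to 177 CPM in the same clusters. Ube3a had 223 to 291 against 123 to 143 CPM. For these 4 genes the libraries of the 2 clusters did not overlap.

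The machinery that writes, erases and guards imprints was taken as a list of 20 genes, of which 18 were tested. Against endothelial cells 8 were higher in germ cells and 9 lower, beside the background of 78.7%. Tet1, a 5-methylcytosine oxidase that acts in demethylation, had 112 and 146 CPM (WT), 76.5 and 127 (KO) in germ cells and 6.71 and 9.49 CPM (WT), 6.79 and 7.52 (KO) in endothelial cells (log2 3.84 (SE 0.118)). Tet3, a relative of Tet1, went the other way, from 29.996 and 34.7 CPM (WT), 28.6 and 33.5 (KO) in endothelial cells to 2.23 and 0.980 CPM (WT), 0.617 and 0.973 (KO) in germ cells (log2 -4.94 (SE 0.223)). Uhrf1, which brings the maintenance methyltransferase Dnmt1 to newly copied DNA, fell to 15.6 and 8.16 CPM (WT), 12.7 and 10.7 (KO) in germ cells from 83.6 and 75.4 CPM (WT), 96.97 and 74.7 (KO) (log2 -2.91 (SE 0.129)). Trim28, the silencing partner of ZFP57, rose to 383 and 289 CPM (WT), 327 and 341 (KO) from 142 and 106 CPM (WT), 138 and 115 (KO) (log2 1.37 (SE 0.0721)). In each of these 4 genes the germ and endothelial libraries did not overlap. They were named by their adjusted p. Outside that rule, and chosen after their values were seen, Zfp57 itself had 0.653 to 1.62 CPM in germ cells and 22.4 to 36.6 in endothelial cells, the de novo methyltransferase Dnmt3b 0.926 to 1.49 and 15.1 to 15.5, and Dnmt1 152 to 179 and 103 to 125.

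A second list held 33 imprinted genes that are not among the 38, of which 24 were tested. In germ cells against endothelial cells 6 were higher and 14 lower (83.3% called), with a median log2 change of -0.71. Over all genes 78.7% were called in this contrast, 37.2% higher and 41.5% lower, with a median of -0.08. In mesenchymal cells against endothelial cells 5 were higher and 12 lower (70.8% called), with a median of -0.24. The background there was 65.1% called, 31.6% higher and 33.5% lower, with a median of -0.02. Pon2, a lactonase, and Asb4, a ubiquitin ligase adaptor of vessels, fell, with log2 changes of -4.35 (SE 0.174) and -4.08 (SE 0.167). Pon2 had 14.1 and 7.35 CPM (WT), 8.33 and 6.49 (KO) in germ cells and 164 and 153 CPM (WT), 174 and 168 (KO) in endothelial cells. Atp10a, a lipid flippase, and Sfmbt2, a Polycomb-group protein, rose by log2 3.71 (SE 0.191) and 3.26 (SE 0.174). Sfmbt2 had 17.5 and 23.5 CPM (WT), 18.8 and 20.1 (KO) in germ cells and 2.16 and 2.23 CPM (WT), 1.59 and 2.05 (KO) in endothelial cells. These 4 did not overlap between the classes.

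The loss of miR-223 was then examined in each class, 2 KO libraries against 2 WT libraries, with edgeR's quasi-likelihood test over all genes of the class. In germ cells 29 of the 36 genes were tested and 1, Phlda2, was higher in KO, against a background of 0.153% of 10436 genes called (0.0767% higher and 0.0767% lower). It had 181 and 179 CPM (WT), 426 and 271 (KO), so both KO libraries lay above both WT libraries, with KO1 highest. The log2 change was 1.01 (SE 0.176, adjusted p = 0.0332, edgeR). The direction was the same under every alternative run. The settings that ended the call include doublets kept (adjusted p 0.615), WT1 left out (0.822), WT2 left out (0.846) and KO1 left out (log2 0.64, adjusted p 0.379), and over all alternatives the adjusted p ranged from 5.06e-09 to 0.846. KO1 is the library with almost no Xist, and its germ cells also had the highest erythroid marker sum (799.5 CPM) and the lowest median UMI count (36472); the part of these in the difference was not tested. The change in germ cells was not called different from that in endothelial cells, where Phlda2 had 0.239 to 0.478 CPM.

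Ndn and Peg10 had the next smallest p-values in germ cells. Ndn had 21.9 and 20.6 CPM (WT), 24.4 and 29.7 (KO) (log2 0.42, SE 0.195, adjusted p = 0.999, edgeR), and its KO libraries lay above its WT libraries. Peg10 had 11.5 and 7.84 CPM (WT), 20.1 and 9.73 (KO) (log2 0.66, SE 0.332, adjusted p = 0.999, edgeR), where the WT1 value lay above that of KO2. At an unadjusted threshold of 0.05, 2 of the 29 genes passed in edgeR and 1 in DESeq2.

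In endothelial cells none of the 36 genes was called by edgeR or DESeq2, beside a background of 0.143% of 14642 genes (0.0683% higher and 0.0751% lower). At an unadjusted p under 0.05 there were 2 in edgeR and 3 in DESeq2. The smallest p-values belonged to Airn, with 23.03 and 28.2 CPM (WT), 15.02 and 19.7 (KO) (log2 -0.55, SE 0.183, adjusted p = 0.9999, edgeR), then Rtl1 at under 1 CPM in each library, and Ndn with 101 and 88.2 CPM (WT), 129 and 105 (KO). Airn was lower in both KO libraries than in both WT libraries. Rtl1 had a log2 change of -1.74 (SE 0.673) that passed with no filter on low counts (adjusted p 0.0159, edgeR) and under no other setting run; without WT2 it was -0.55.

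In mesenchymal cells none of 33 genes was called by either tool (background 0.00857% of 11669 genes, 1 gene). At an unadjusted p under 0.05 there were 2 in edgeR and 3 in DESeq2. Meg3 had 636 and 595 CPM (WT), 905 and 886 (KO) (log2 0.57, SE 0.131, adjusted p = 0.67, edgeR), with both KO libraries above both WT libraries. The make-up of the class differed between libraries as well: the Col1a1, Postn and Lum cluster, where Meg3 was highest, held 15 of 282 and 8 of 186 mesenchymal cells in WT and 48 of 413 and 14 of 204 in KO, and the Prrx1 and Shox2 cluster 171 and 123 in WT and 193 and 110 in KO. Within single clusters, Meg3 was at 540 and 477 CPM (WT) and 698 and 685 (KO) in the Prrx1 and Shox2 cluster, at 603 and 597 (WT) and 851 and 977 (KO) in the Foxd1 and Zic1 cluster, and at 2034 and 2377 (WT) and 2196 and 1674 (KO) in the Col1a1, Postn and Lum cluster. Both KO libraries were above both WT libraries in the first 2 of these clusters, and the groups overlapped in the last. The neighbours of Meg3, Mirg, with 15.3 and 9.50 CPM (WT), 23.2 and 17.8 (KO), and Dlk1, with 281 and 268 CPM (WT), 479.6 and 274 (KO), came next, at log2 0.72 (SE 0.256) and 0.49 (SE 0.227). All 3 lie on chromosome 12 within the same locus. Dlk1 was high in KO1 alone, and it was called without KO2 (log2 0.83, adjusted p 0.00454, edgeR) and under no other setting run, while without KO1 the log2 change was 0.026.

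In neural cells none of 27 genes was called by either tool (background 0% of 8696 genes), and 1 passed an unadjusted p of 0.05 in each tool. Ndn had 137 and 136 CPM (WT), 192 and 217 (KO), with both KO libraries above both WT ones (log2 0.60, SE 0.174, adjusted p = 0.999, edgeR). Zdbf2 had 27.7 and 95.3 CPM (WT), 32.3 and 30.6 (KO), where the WT2 value set the difference: its log2 change of -0.92 (SE 0.601) became 0.24 without WT2. Peg10, the last of the 3, had 36.9 and 34.9 CPM (WT), 28.4 and 29.9 (KO), with a log2 change of -0.28 (SE 0.267).

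In blood none of 28 genes was called by either tool (background 0% of 10322 genes), with 2 at an unadjusted p under 0.05 in edgeR and 1 in DESeq2. Of the 28, 25 had a higher estimate in KO and 3 a lower one, with a median log2 change of 0.29 against 0.0145 for all genes. That median depended on the WT libraries: it was 0.062 without WT1 and 0.68 without WT2. Without KO1 it was 0.28 and without KO2 0.30. Nnat had 37.95 and 20.99 CPM (WT), 13.9 and 11.9 (KO) (log2 -1.27, SE 0.442), Dlk1 8.43 and 13.1 CPM (WT), 21.8 and 18.3 (KO) (log2 0.89, SE 0.328) and Ndn 17.7 and 34.8 CPM (WT), 53.9 and 36.9 (KO) (log2 0.81, SE 0.372). The adjusted p was 0.99998 for all 3 (edgeR). The make-up of blood differed between these libraries: WT1 held 11 hemogenic or progenitor cells of 87 and had the lowest summed share of the 36 genes (0.195%). With those cells left out in every library the log2 changes were -1.85 for Nnat, 2.39 for Dlk1 and -0.48 for Ndn, and none was called. Under that setting 14 of 24 tested genes had a higher estimate in KO and 10 a lower one, with a median of 0.14. Ndn was the gene with the third smallest p in blood and in endothelial cells and was among the 3 smallest in 4 of the 5 classes. The classes share their libraries, so these are not separate observations.

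**Figure D5:**
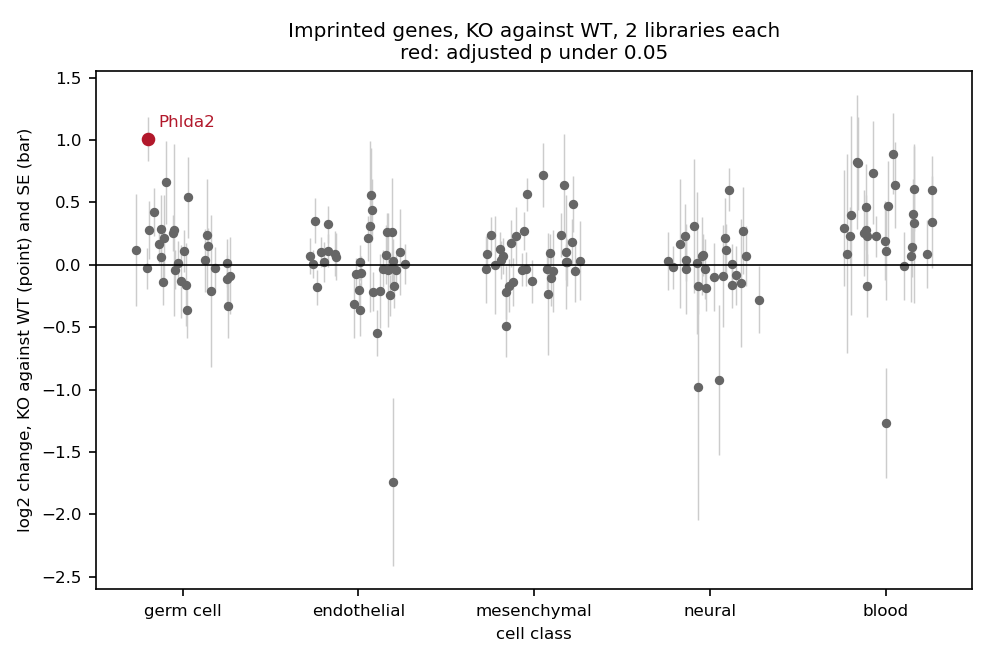
Log2 change of the tested imprinted genes in KO against WT (y axis, SE bars), 2 libraries each, in 5 cell classes. Phlda2 in germ cells, at 1.01, is the only gene past the threshold in any class.

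Whether the KO effect differed between classes was tested with an interaction term for germ, mesenchymal, neural and blood cells, each against endothelial cells. None of 34 genes was called in any of these 4 by edgeR or DESeq2, beside backgrounds of 0%, 0%, 0.00801% and 0% of 12485 genes. At an unadjusted p under 0.05 edgeR gave 1 gene for germ cells (Peg10), 0 for mesenchymal, 0 for neural and 3 for blood cells, and DESeq2 gave 1, 0, 0 and 2. Of the 20 machinery genes 15 to 18 were tested in a class, and of the 33 other imprinted genes 13 (neural cells) to 27 (endothelial cells). None of those tested was called in KO against WT in any class by either tool. At an unadjusted p under 0.05 edgeR gave 0 machinery genes in all 5 classes, and 2 of the other imprinted genes in mesenchymal cells and 1 in blood.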

How the data were processed

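The deposited values are whole-number UMI counts per gene and cell barcode (31053 genes, 31521 barcodes), written by Cell Ranger 3.1.0 per the file headers; Seurat 4 is listed in the submitters' processing notes with no role stated. The genome build, annotation and strand setting are not stated for these files. Depth was 95158639, 181682389, 109713066 and 167542930 UMIs in WT1, WT2, KO1 and KO2. Kept barcodes had 1000 or more genes and less than 10% of UMIs from mitochondrial genes, and predicted doublets were removed (2 simulated doublets per cell, 0.8% expected per 1000 barcodes). Clusters came from 2000 variable genes without any listed imprinted or machinery gene, 40 principal components, 20 neighbours and Leiden resolution 1 (Python 3.11.15, scikit-learn 1.9.0, leidenalg 0.10.2), which gave 28 clusters. A cluster took a class name where that class's markers exceeded all other clusters by a mean log2 of 1.5 and led its top 10 genes; of the rest, a cluster was endothelial where endothelial markers exceeded the named clusters by 1.5. Clusters led by epithelial markers or with a median UMI count under 0.5 of that of all cells were not named. These limits were set after the clusters were seen, and 6 clusters with 1338 cells stayed unnamed. A class assigned to each cell by marker UMIs matched its cluster in 98.13% of cells, with 788 cells near the limit.

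Each library's UMIs were added up within a class, and the sums were tested with edgeR 4.0.16 (R 4.3.3, limma 3.58.1, TMM scaling, filterByExpr, robust quasi-likelihood, Benjamini-Hochberg threshold 0.05 over all genes). Class contrasts had the library as a block and all 5 classes in 1 fit; KO against WT had no block. DESeq2 1.42.0 was an alternative, with library totals, no filter, doublets kept, at least 2000 genes per cell, per-cell classes, each library left out, other blocks, the 2 classes alone, and blood without hemogenic clusters. Shares of cells were thinned to 5000 UMIs. Genes with a mean of at least 10 CPM in a class are named, and in KO against WT the genes called or the 3 with the smallest p; of the other lists, the 4 with the smallest adjusted p. Coordinates are GENCODE M21 (GRCm38), which holds 30934 of the 31053 gene identifiers. The genes, lists and tests were chosen with earlier results of these data known.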

Additional observations from a re-analysis of the deposited data

Results flagged for a closer look

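Among 123 class levels of single genes examined over the 4 libraries, 6 had 1 library far from the other 3 (its gap to the nearest of them took up most of the range, beyond Dixon's 95% limit). Chance gives about 1 in 20. H19 in blood had 135.2 CPM in WT1 against 397 to 446 in the others, and Plagl1 in blood had 21.08 CPM in WT1 against 49.3 to 51.6. Blood of WT1 held 11 hemogenic or progenitor cells of 87, and the part of this in both values was not tested. Tssc4 in blood had 35.44 CPM in WT2 against 29.8 to 30.6. Dlk1 in mesenchymal cells had 479.6 CPM in KO1 against 268 to 281 in the others. Ube3a in endothelial cells had 104.6 CPM in WT1 against 122 to 124. Zdbf2 in neural cells had 95.31 CPM in WT2 against 27.7 to 32.3.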

How the results depend on the processing

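Of 142 calls of imprinted genes between classes, 125 kept their direction and call under each of up to 13 alternatives; over 1726 values 1667 kept both, 58 lost the call and 1 reversed. That reversal was Ndn in germ cells against blood, at log2 0.67 with blood without hemogenic clusters, under which Ndn in KO against WT in blood also turned to -0.48. The changed make-up of the class is the alternative itself; no other cause was tested. Zdbf2 in KO against WT in neural cells ranged from -1.58 to 0.24 when 1 library was left out. The count of imprinted genes called in germ cells in KO against WT, 1 as reported, fell to 0 with doublets kept and was 0 to 1 with 1 library left out (1 without KO2). WT and KO libraries share replicate numbers only. With a replicate block the germ cell count was 0, Phlda2 having a log2 change of 0.96 and an adjusted p of 0.0743 (edgeR), and no other call on imprinted genes in KO against WT changed; deviations of WT1 and KO1 from their group means correlated at 0.165 (germ cells) to 0.323 (endothelial cells), and with 2 pairs these give no separate check. With no filter on low counts, 1 gene was called in endothelial cells (Rtl1), 1 in the neural interaction and 4 in the blood interaction. Over all genes that setting called 30 higher and 55 lower of 21646 in endothelial cells. It called 10 higher and 14 lower of 23054 in the neural interaction, and 59 higher and 33 lower of 23054 in the blood interaction. With 1 library left out, which leaves an arm with 1 library assumed to vary like the others, 0 to 2 genes were called in mesenchymal cells (2 without KO2) and 0 to 1 in the blood interaction (1 without WT2). The cause of these changes was not tested. Over all genes the KO calls were 16 in germ cells (7 without WT2 to 34 with no filter), 21 in endothelial cells (10 with doublets kept to 103 without WT2), 1 in mesenchymal cells (up to 114 without KO2), 0 in neural cells (up to 94 without KO2) and 0 in blood (up to 37 with no filter). In the interactions they were 0, 0, 1 and 0 for germ, mesenchymal, neural and blood cells, and up to 15, 22 and 24 with no filter and 139 without WT2.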

Other observations

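Cells in no named class also differed in imprinted genes. A cluster of 280 cells led by Afp, Rbp4, Krt8 and Wt1 had 1134 to 1283 CPM of Peg3 by library, 145 to 765 CPM of Dlk1 and 461 to 1328 CPM of Meg3. Grb10 had 356 to 385 CPM in that cluster, above every library of the 5 classes.

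Within blood, hemogenic or progenitor cells had 505 to 804 CPM of H19 and 569 to 786 CPM of Cdkn1c. Megakaryocytes had 27.02 to 70.6 CPM of H19 and 39.4 to 109 CPM of Cdkn1c, below every library of the former cells for both genes.

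Ins2, an insulin gene next to Igf2 that is imprinted in yolk sac, was looked up after its values were seen. Within the named classes its UMIs came almost all from germ cells, at 4, 25, 23 and 24 UMIs in WT1, WT2, KO1 and KO2. These were 1.49 and 4.08 CPM (WT), 7.10 and 3.89 (KO). Cells in no named class were not counted for Ins2. Endothelial cells gave 4 UMIs, all in KO2, and mesenchymal, neural and blood cells gave 0.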
